A study of Mus musculus with 12 samples.

Results

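The genes described are 54 mouse genes of the cell division cycle and of DNA replication, chosen by symbol. A probe set (a group of short array probes for 1 transcript) with that single symbol was found for 53 of the 54, Ccnb1 being the gene with none in the annotation used, against 12393 genes in the whole series. Where a gene had several probe sets, the one with the highest mean log2 signal over the 12 arrays stood for it, and the other 47 probe sets served as a check.

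The samples were livers of 12 male mice aged 6 weeks that carried an inducible human alpha1-antitrypsin transgene expressed in hepatocytes. The protein is a secreted protease inhibitor. M mice had its normal form, and Z mice had a mutant that is known to misfold and to be retained in the cell. The M off and Z off groups drank doxycycline at 40 ug/mL from conception until death, which by design keeps the transgene silent, and the M on and Z on groups drank no doxycycline. There were 3 mice in each of the 4 groups, described as biological replicates. The human transcript itself was not analysed here. All mice carried a transgene, so expression cannot be told apart from the absence of doxycycline, and the Z form cannot be told apart from its mouse line. Whole liver was used, so fewer cells of a type and less RNA per cell cannot be told apart.

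A dividing cell passes in order through growth, DNA synthesis and mitosis. Cyclins switch on cyclin-dependent kinases (CDKs), which inactivate the retinoblastoma protein and release E2F factors that transcribe the genes of DNA replication. A later set of genes, bound through a promoter element called CHR together with CCAAT boxes, carries the cell through mitosis. CDK inhibitors such as p21 hold this programme back. In the adult liver most hepatocytes are quiescent and re-enter the cycle after injury or tissue loss, while the juvenile liver is still growing.

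The promoters of 5 members named in the comparisons are shown with the elements found in each. Each is the RefSeq sequence on build GRCm38.p6 from 250 bases before to 50 bases after the annotated start, given 5′ to 3′ on the gene's own strand. Capitals mark matches on either strand to E2F words (TTTCCCGC, TTTGGCGC, TTTCGCGC, TTTGCCGC), CHR words (TTTGAA and the variant TTCGAA), boxes of CCAAT and, for Cdkn1a, p53 half-sites. Mcm5 lies at chr8:75109259-75109558 on the plus strand, Rrm2 at chr12:24708004-24708303 on the plus strand, Cdc20 at chr4:118437294-118437593 on the minus strand, Mki67 at chr7:135716330-135716629 on the minus strand and Cdkn1a at chr17:29090729-29091028 on the plus strand.
Mcm5: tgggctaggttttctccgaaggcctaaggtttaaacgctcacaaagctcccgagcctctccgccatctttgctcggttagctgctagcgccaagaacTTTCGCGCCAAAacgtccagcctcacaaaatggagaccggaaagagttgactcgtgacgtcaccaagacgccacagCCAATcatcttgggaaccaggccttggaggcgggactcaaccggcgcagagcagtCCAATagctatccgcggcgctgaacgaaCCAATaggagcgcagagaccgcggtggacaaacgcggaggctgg
Rrm2: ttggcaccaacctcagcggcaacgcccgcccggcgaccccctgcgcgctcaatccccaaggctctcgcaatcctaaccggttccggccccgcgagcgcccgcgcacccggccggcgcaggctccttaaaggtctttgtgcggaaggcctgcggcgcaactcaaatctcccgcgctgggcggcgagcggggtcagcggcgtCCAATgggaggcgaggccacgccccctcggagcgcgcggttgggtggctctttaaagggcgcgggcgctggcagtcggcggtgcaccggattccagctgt
Cdc20: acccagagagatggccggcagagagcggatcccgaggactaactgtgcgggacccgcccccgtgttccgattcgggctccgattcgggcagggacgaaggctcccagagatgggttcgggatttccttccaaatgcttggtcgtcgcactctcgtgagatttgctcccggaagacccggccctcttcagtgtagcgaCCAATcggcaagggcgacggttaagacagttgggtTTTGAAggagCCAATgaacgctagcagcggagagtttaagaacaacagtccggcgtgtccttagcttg
Mki67: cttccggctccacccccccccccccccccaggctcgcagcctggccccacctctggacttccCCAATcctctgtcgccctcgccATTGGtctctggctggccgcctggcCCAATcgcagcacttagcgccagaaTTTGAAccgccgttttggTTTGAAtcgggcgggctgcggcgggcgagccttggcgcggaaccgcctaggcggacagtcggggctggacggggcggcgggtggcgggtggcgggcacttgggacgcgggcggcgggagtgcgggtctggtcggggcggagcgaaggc
Cdkn1a: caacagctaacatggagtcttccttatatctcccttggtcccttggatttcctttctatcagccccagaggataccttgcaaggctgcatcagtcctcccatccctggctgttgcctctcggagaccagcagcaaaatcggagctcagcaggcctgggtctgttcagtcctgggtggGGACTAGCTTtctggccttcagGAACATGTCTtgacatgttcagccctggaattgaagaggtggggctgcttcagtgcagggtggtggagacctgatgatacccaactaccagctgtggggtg

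In the Mcm5 promoter 2 overlapping E2F matches formed 1 capital run, followed by 3 CCAAT boxes. Cdc20 and Mki67 held CHR words with CCAAT boxes, Rrm2 held 1 CCAAT box, and Cdkn1a held 2 p53 half-sites. A promoter was listed for 41 of the members, the first being used where several were given. An E2F word occurred in 8 of the 41 (19.5%), against 2.26% of all 32851 promoters of the same length in the table. It occurred in 6 of the 11 DNA replication promoters and in 0 of the 12 mitosis promoters. A CHR word occurred in 18 of the 41 (43.9%) against 19.2% of all, and in 10 of the 12 mitosis promoters. CCAAT occurred in 27 of the 41 (65.9%) against 37.4%, and a p53 half-site in 7 of the 41 (17.1%) against 8.36%. These matches describe letters in the window and not binding.

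Most of these transcripts were dim. The deposited signal is on a linear scale with array medians from 38.8 to 47.2, and 25 of the 53 members read at least 16 on every array. The other 28 read below 16 on at least 1 array, where 28.4% of all values in the series lie, and Cdc6, Tyms and Bub1b did so on all 12. Of the 53 members, 23 were brighter than the median probe set. Hepatocyte marker transcripts were high on every array, with sums from 86770.3 to 142189.3 over 7 measured markers.

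Differences were tested on log2 signal with limma over all 22626 probe sets and all 12 arrays, and called at an adjusted p (Benjamini-Hochberg) under 0.05. None of the 53 members was called in any of the 5 comparisons: M on against M off, Z on against Z off, the difference between these 2 responses, Z on against M on, and Z off against M off. The share of all probe sets called was 0%, 0.0133%, 0%, 0.00884% and 0.0707% in that order. The values below are therefore levels and differences that did not pass the test, with unadjusted p-values given to rank them. The number of arrays limits the precision, and for a single probe set an exact two-sided permutation of 3 against 3 arrays cannot go below p = 0.1.

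**Figure D1:**
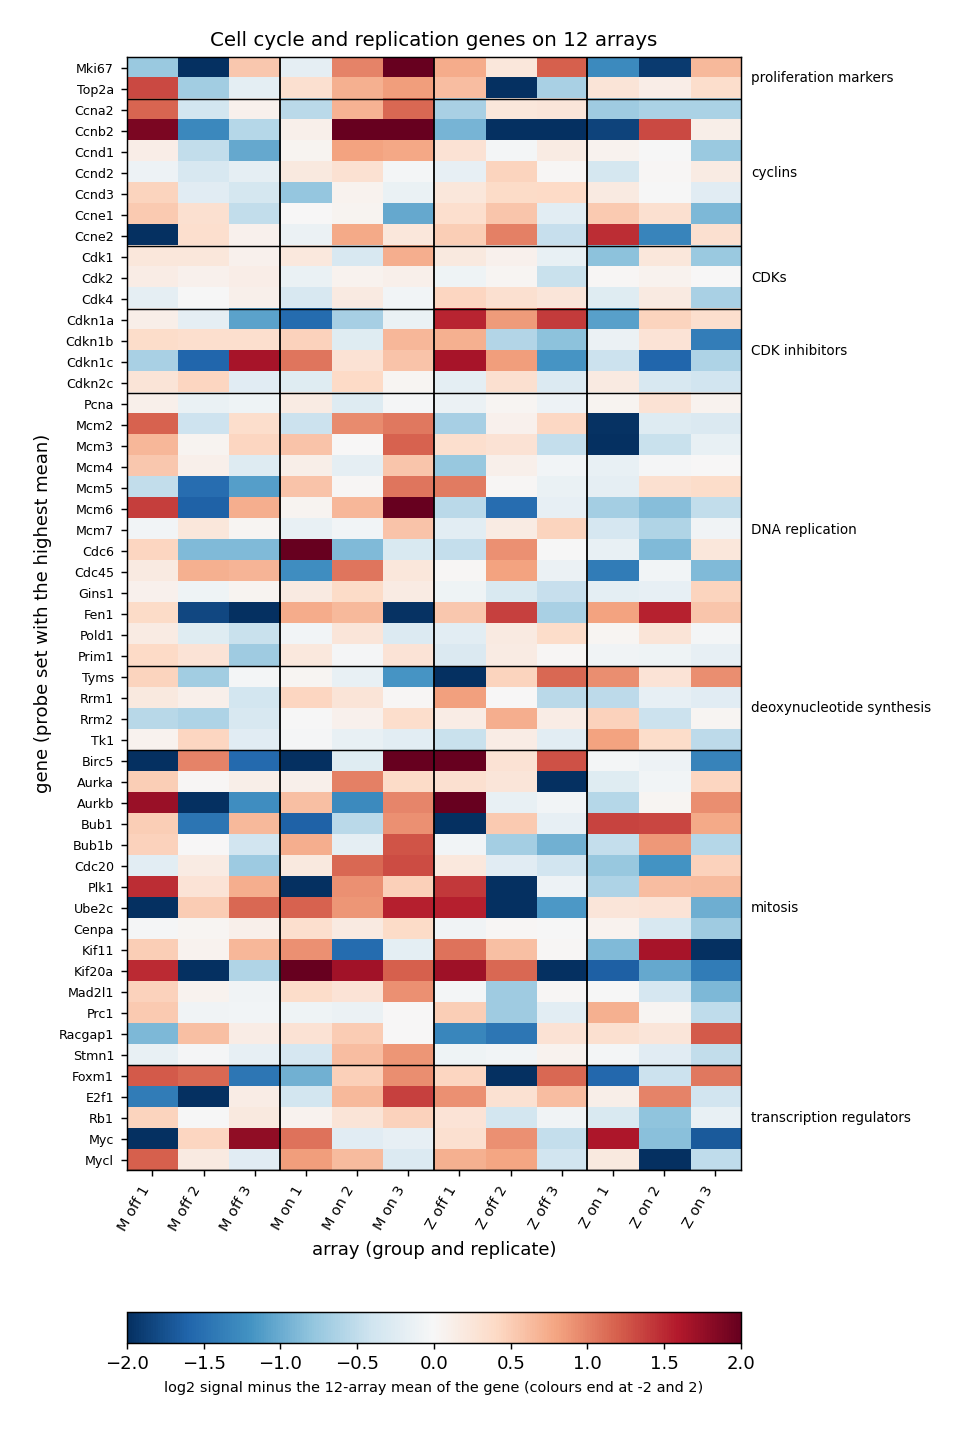
Log2 signal of the 53 genes on each of the 12 arrays, as the difference from the gene's mean over all arrays (red higher, blue lower, colours ending at -2 and 2). Genes are grouped by role and arrays by group. The third M on array is the reddest column among the mitosis genes, with a median deviation of 0.91 over 15 genes.

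In M mice, 38 of the 53 members read higher with the transgene on and 15 lower, with a median log2 difference of 0.22 against -0.01 over all probe sets. At an unadjusted p under 0.05, 5 members (9.43%) read higher and 0 lower, against 2.76% and 2.42% of all probe sets, 5.18% in all. The 5 were Mcm5, Ccnd1, E2f1, Cdc20 and Rrm2. In 6 members (11.3%) every M on array lay above every M off array, against 5.23% of all probe sets, and in 0 below, against 5.32%. These were Ccnd2, Mcm5, Gins1, Rrm2, Cdc20 and Cenpa. The 6 skeletal muscle markers measured summed to 329.5 and 537.5 on the first and the third M off arrays and to 54.1 to 162.8 on the other arrays, with 5 of the 6 lower in M on. The 7 stellate cell markers summed to 1486.8 to 1634.8 in M off and 940.2 to 1183.8 in M on, with 6 of 7 lower in M on and Dcn at -1.01 (limma adjusted p = 0.805). The 7 endothelial markers summed to 742.9 to 782.4 and 612.0 to 721.3, with 6 of 7 lower in M on. The part of these cell types in the M comparison was not tested.

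Among the replication genes, which unwind and copy DNA, 12 of 13 read higher in M on, with a median difference of 0.17. Mcm5, a subunit of the MCM helicase, had signals of 14.1, 6.9 and 9.2 on the M off arrays and 29.3, 20.1 and 41.4 on the M on arrays. The groups did not overlap, and the means were 10.1 ± 3.68 and 30.3 ± 10.7 (SD, n = 3). The log2 difference was 1.59 (SE 0.40, 95% interval 0.70 to 2.48, limma adjusted p = 0.577), the smallest p among the members. Pcna, the sliding clamp of the replication fork, had a log2 difference of 0.00 with a 95% interval of -0.38 to 0.39. Rrm2, the regulated subunit of ribonucleotide reductase, read 32.1, 30.7 and 37.7 in M off and 46.6, 50.2 and 59.9 in M on. Its groups did not overlap, and the log2 difference was 0.64 (SE 0.26, adjusted p = 0.935 by limma).

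Of the 7 cyclins measured, 5 read higher in M on. Ccnd1, the D-type cyclin that starts the response of hepatocytes to growth signals, read 208.4, 134.2 and 93.2 in M off and 196.9, 330.2 and 324.6 in M on. The first M on array lay within the M off range and the other two lay above it. The log2 difference was 1.01 (SE 0.35, limma adjusted p = 0.856). The other probe sets of Ccnd1 gave -0.26 and 0.53, so they did not share 1 direction. E2f1, a transcription factor that drives entry into DNA synthesis, read 5.7, 1.9 and 16.6 in M off and 11.6, 23.4 and 38.8 in M on. The groups overlapped, and the log2 difference was 1.96 (SE 0.73, limma adjusted p = 0.892), against 0.24 for its other probe set.

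Of the 15 mitosis genes, 11 read higher in M on, with a median of 0.37. Cdc20, an activator of the ubiquitin ligase that ends mitosis, read 31.7, 41.1 and 22.0 in M off and 41.8, 81.0 and 90.0 in M on. The lowest M on array stood just above the highest M off array. The log2 difference was 1.14 (SE 0.46, limma adjusted p = 0.924), and the other probe sets gave 0.70 and 0.53. Mki67, the gene of the proliferation antigen Ki-67, read 6.5, 2.3 and 15.8 in M off and 9.6, 21.7 and 44.1 in M on. Its groups overlapped, with a log2 difference of 1.76 (SE 0.85, limma adjusted p = 0.984). Kif20a, a kinesin of cytokinesis, had the largest difference of all members at 2.08 (SE 1.09), but its M off arrays ran from 1.5 to 19.9 and its M on arrays from 16.2 to 28.8. Stmn1, a microtubule-destabilising protein, read 88.5, 170.4 and 205.7 in M on against 99.3 to 109.2 in M off. The first M on array lay below all M off arrays, and the log2 difference was 0.50 (SE 0.29).

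CDK inhibitors did not read higher as a group in M on, with 1 of 4 higher and a median of -0.07. The 3 CDKs measured differed by -0.11 to 0.02 on the log2 scale.

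**Figure D2:**
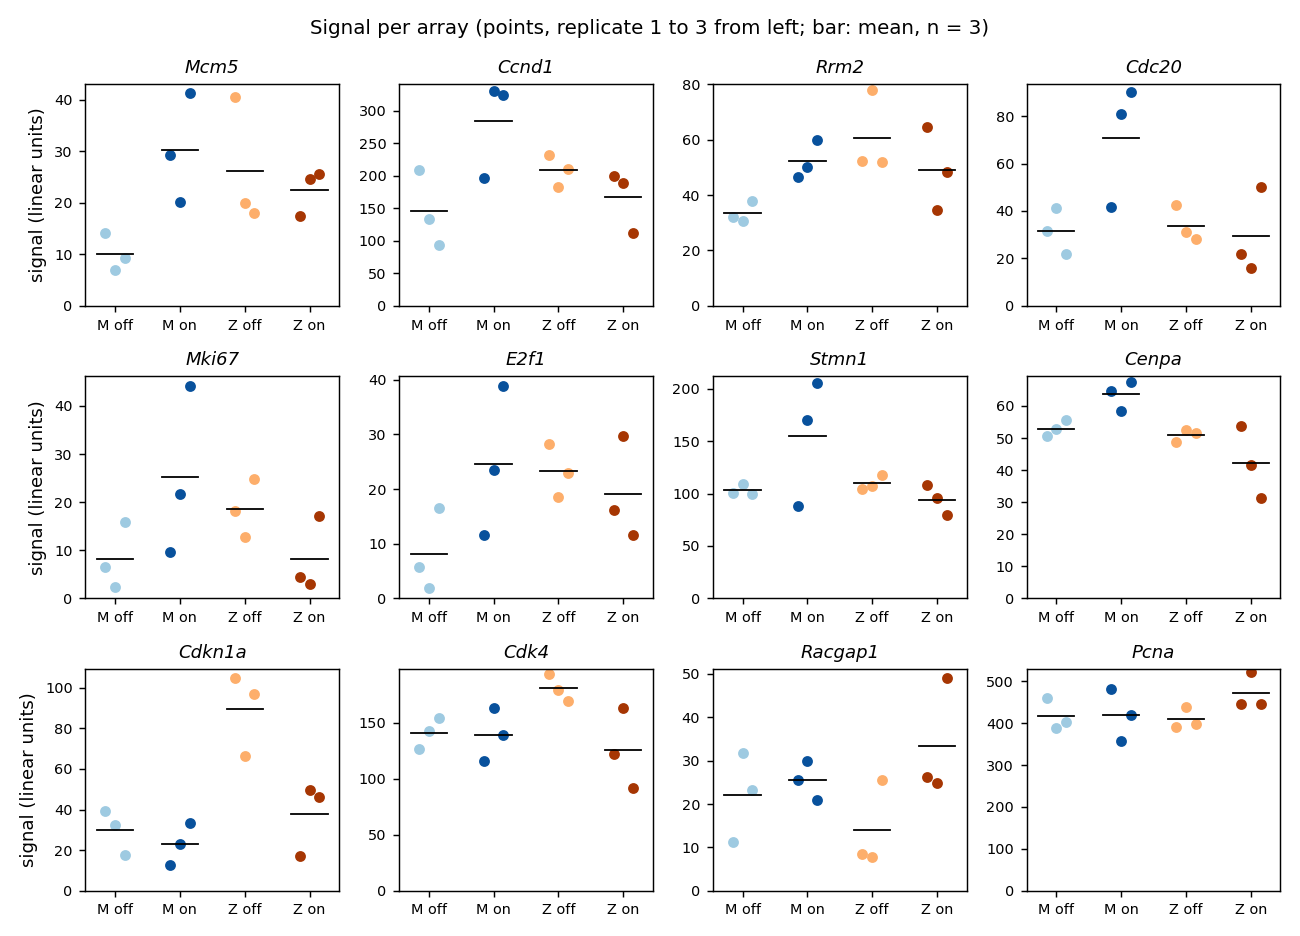
Signal in linear units for 12 of the genes, 1 panel each, with the 3 replicates of each group as points and the group mean as a bar; vertical axes start at 0 and differ between panels. Mcm5 is lowest on the 3 M off arrays, Cdkn1a is highest on the 3 Z off arrays, and Pcna lies between 357.9 and 521.7 on all 12.

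The third M on array stood apart for these genes. It had the highest of the 12 signals for 17 of the 53 members (32.1%), against 5.11% of all 22626 probe sets. By role these were 7 of 15 mitosis genes, 5 of 13 replication genes, 2 of 5 transcription regulators, and 1 each of the proliferation markers, cyclins and CDKs. They included Mki67, Ccnb2, Cdk1, Birc5, Ube2c and the MCM subunits Mcm3 to Mcm7. The counts use 1 probe set per gene, and some further probe sets of Mcm3, Mcm4, Mcm6 and Mcm7 were highest on other arrays. Among the 23 brighter members the count was 6 (26.1%), against 6.21% of the brighter probe sets. The array with the next highest count, the first M off array, held 9 members (17.0%), against 12.5% of all probe sets.

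The examples that follow were picked from the genes highest on that array. Mcm6 read 8.6 and 13.2 on the first and second M on arrays and 68.1 on the third, while the M off arrays ran from 2.7 to 21.6. The other Mcm6 probe set read 11.2, 0.7 and 14.8 on the M on arrays and was highest on the second Z off array, at 18.3. Birc5, the gene of survivin, read 1.3, 4.7 and 49.4 on the M on arrays and at most 22.5 on the other groups. Ccnb2, a mitotic cyclin, read 7.3, 30.3 and 61.7, with 1.6 to 25.1 elsewhere. For all 3 genes the remaining M on arrays lay within or near the range of the other groups.

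Without the third M on array, the members higher at an unadjusted p under 0.05 numbered 2 instead of 5. Leaving out the second M on array gave 1, the first gave 8, and the second M off array gave 3. The median over members stayed between 0.14 and 0.34 when any 1 array was left out. Of the lists outside the members, 7 of 32 further mitotic genes (21.9%) were highest on the third M on array, and 6 on the first Z off array. Of 25 further replication genes, 4 (16%) were highest on the third M on array, but more, 7, on the first. Of 12 E2F, pocket protein and DREAM complex genes, 0 were highest on the third M on array. The same array held 1 of 12 further cyclins, kinases and inhibitors. It held 2 of 16 p53-linked genes, 1 of 21 growth signal genes and 1 of 16 clock genes. Of the marker lists, hepatocyte, Kupffer cell, erythroid, neutrophil, endothelial, stellate, cholangiocyte, B cell and muscle markers had 0 genes highest there. Among T and NK cell markers, 2 of 5 (Cd3d and Nkg7) were highest there, with a summed signal of 69.6 within the range of 36.8 to 76.9 over all arrays. The actin 3′ to 5′ probe ratio, which grows with RNA degradation, was 4.38 on that array within a range of 2.18 to 5.16. The part of T and NK cells or of RNA quality in the high values was not tested.

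**Figure D3:**
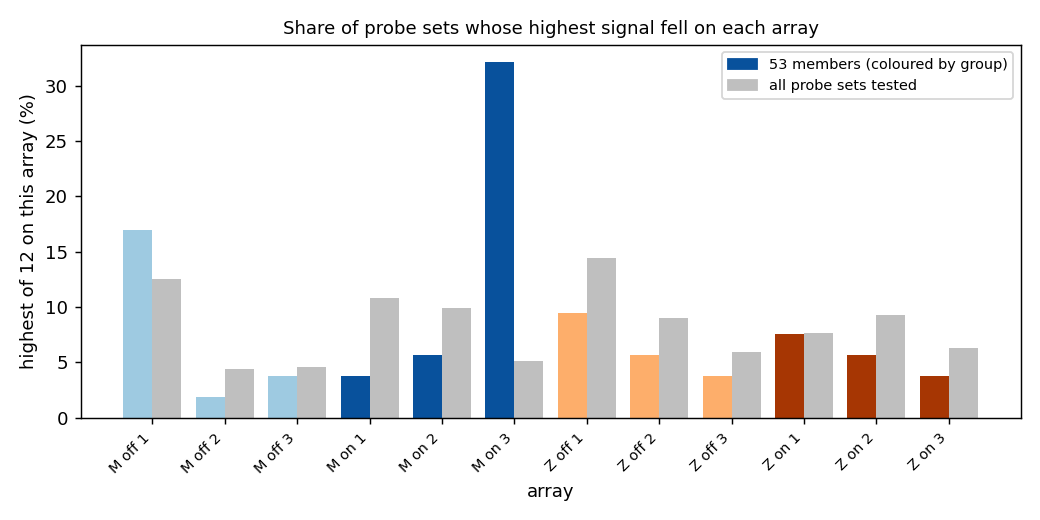
For each array, the percentage of the 53 members (coloured by group) and of the 22626 probe sets tested (grey) whose highest signal of the 12 was on that array. The third M on array holds 32.1% of the members and 5.11% of all probe sets.

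In Z mice the counts lay the other way. With the transgene on, 17 of the 53 members read higher and 36 lower, with a median log2 difference of -0.23 against -0.03 over all probe sets. At an unadjusted p under 0.05, 1 member read higher and 2 lower (5.66% together, against 2.70% higher, 3.59% lower and 6.29% in all over the probe sets). Every Z on array lay above every Z off array for Pcna and Bub1, and below for Ccnd3, Cdk4, Cdkn1a and Birc5. These 6 are 11.3% of the members, against 5.22% higher, 6.61% lower and 11.8% in all over the probe sets, so the share of separated genes was near that of the whole array. The count of 2 lower was 5 without the second Z on array and 1 without the first or the second Z off array. The 18S ribosomal RNA signal was 93.9 to 373.0 in Z off and 914.2 to 1491.7 in Z on. The 7 stellate markers summed to 1545.4 to 1624.9 in Z off and 1031.8 to 1430.3 in Z on, with 6 of 7 lower in Z on. The erythroid gene Alas2 was called lower in Z on, with a log2 difference of -2.88 (limma adjusted p = 0.00159). Of the 6 erythroid markers measured, however, 4 read higher in Z on and 2 lower, with a median of 0.07. The part of these signals in the Z comparison was not tested.

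The CDK inhibitors all 4 read lower in Z on, with a median of -0.74. The differences were -1.36 for Cdkn1a, -1.31 for Cdkn1c, -0.18 for Cdkn1b and -0.12 for Cdkn2c. On its other probe set Cdkn1b differed by 1.16, the opposite sign. Cdkn1a encodes p21, the inhibitor that p53 induces to stop the cycle, and its promoter is printed above with its 2 p53 half-sites. It read 104.7, 66.2 and 96.8 in Z off and 17.3, 49.7 and 46.4 in Z on. The groups did not overlap, and the means were 89.2 ± 20.3 and 37.8 ± 17.8 (SD, n = 3). The log2 difference was -1.36 (SE 0.51, 95% interval -2.49 to -0.23, limma adjusted p = 0.738). A second, dim probe set of Cdkn1a read 2.2 to 18.8 over the arrays and differed by -0.81.

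Other p53-linked genes were read from a list outside the members, of which 16 of 18 genes were measured. In Z on against Z off, 7 read higher and 9 lower, with a median of -0.10 and none called. Mdm2, the ubiquitin ligase that p53 induces, read 139.7, 108.4 and 100.5 in Z off and 57.3, 85.0 and 89.0 in Z on, a difference of -0.60 (limma adjusted p = 0.743). Phlda3, a p53 target that inhibits Akt, differed by -1.45 (limma adjusted p = 0.671). Gadd45a, a stress-induced gene of the same list, differed by 1.07 in the opposite direction (limma adjusted p = 0.706). The 3 genes thus did not share 1 sign.

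Cdk4, the kinase partner of the D cyclins, read 193.3, 179.5 and 169.3 in Z off and 121.9, 163.0 and 92.1 in Z on. The groups did not overlap, and the log2 difference was -0.56 (SE 0.23, limma adjusted p = 0.761). Its other probe sets both gave 0.05. The 5 transcription regulators all read lower in Z on, with a median of -0.37, and so did 6 of 7 cyclins. Other probe sets of these genes did not all share that sign. They gave 0.66 for Ccna2, 0.05 and 0.08 for Ccnd1, and -0.24 to 1.05 for Ccnd2. Those of Foxm1 gave -0.62, 0.53 and 0.08, and that of E2f1 gave -0.82. Mycl, a MYC family factor, differed by -1.53 (limma adjusted p = 0.817), but its probe sets disagreed. A second one read 6.9, 3.7 and 4.7 in Z off and 14.9, 17.1 and 21.2 in Z on, a log2 difference of 1.83 (SE 0.26, limma adjusted p = 0.15). The remaining one gave 0.10.

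Of the 15 mitosis genes, 7 read higher in Z on. Racgap1, a component of the central spindle in cytokinesis, read 8.5, 7.7 and 25.5 in Z off and 26.2, 24.8 and 49.1 in Z on. The third Z off array overlapped the Z on range, and the log2 difference was 1.42 (SE 0.53, limma adjusted p = 0.735), against 0.18 for its other probe set. Bub1, a spindle checkpoint kinase, read 1.7, 11.5 and 7.1 in Z off and 20.4, 20.2 and 13.5 in Z on. Its groups did not overlap, with a log2 difference of 1.77 (SE 0.85, limma adjusted p = 0.799), but its other probe set gave -0.18. Mki67 differed by -1.56 (SE 0.85) in the same comparison, and Pcna by 0.20 with an interval of -0.18 to 0.59. Among the replication genes, Mcm3 read 24.3, 23.4 and 13.7 in Z off and 3.5, 14.1 and 17.3 in Z on, a difference of -1.06 (limma adjusted p = 0.826). Its other probe sets disagreed, at 0.75, -1.29, 0.22 and 0.55. Cdc45, which joins MCM in the active helicase, read 18.4, 31.6 and 16.7 in Z off and 6.9, 17.4 and 9.8 in Z on, a difference of -1.01 (limma adjusted p = 0.831). The groups overlapped for both genes.

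**Figure D4:**
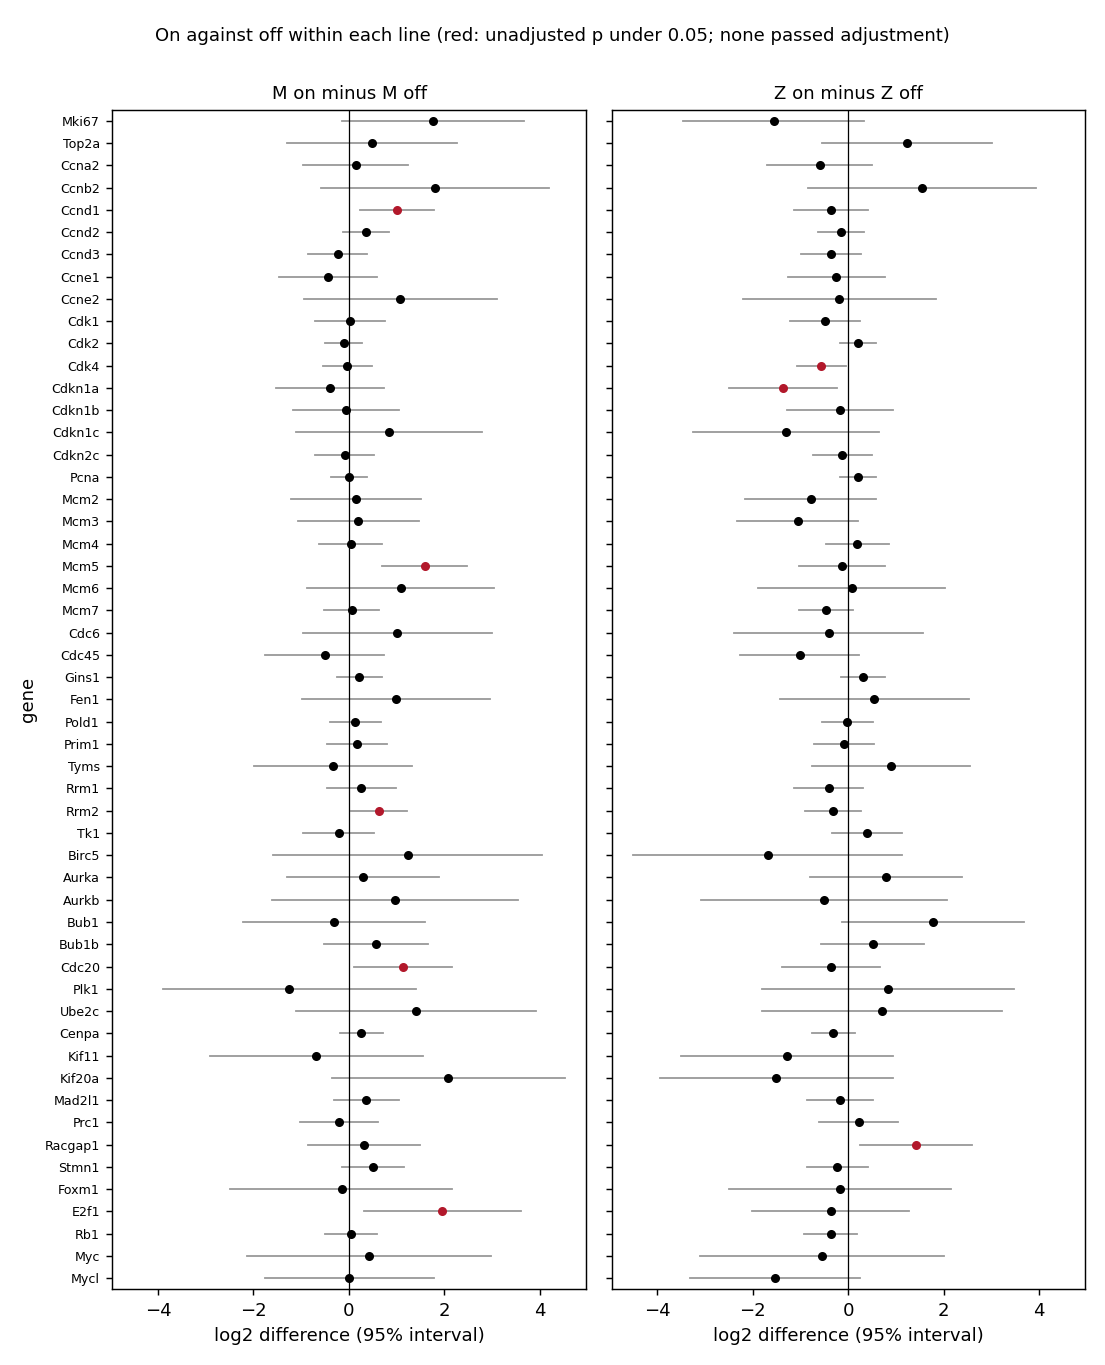
Log2 difference of each of the 53 genes for M on minus M off (left) and Z on minus Z off (right), with 95% intervals as lines; red points have an unadjusted p under 0.05 and no point passed adjustment. In M mice 38 points lie above 0 and in Z mice 17 do.

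The difference between the Z and M responses was tested as an interaction. It was below 0 for 40 of 53 members and above 0 for 13, with a median of -0.52 against -0.02 over all probe sets. At an unadjusted p under 0.05 it was below 0 for 7 members (13.2%), against 3.01% of all probe sets, and above 0 for 0, against 2.17%, with 5.18% of probe sets in either direction. The 7 were Mcm5, Ccnd1, Mki67, Rrm2, Kif20a, Cdc20 and E2f1. Without the third M on array the 7 became 2. The count was 3 without the second Z off array and 4 without the first or second M off, the second M on, the first Z off or the second Z on array.

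Of these 7, Mcm5, Ccnd1, Rrm2, Cdc20 and E2f1 differed by -0.14 to -0.37 between Z on and Z off, and Mki67 and Kif20a by -1.56 and -1.51. Mcm5 differed by -0.14 between Z on and Z off, where it read 40.5, 20.0 and 18.1 in Z off and 17.5, 24.6 and 25.6 in Z on. The interaction for Mcm5 was -1.73 (SE 0.56, limma adjusted p = 0.920). For Ccnd1 it was -1.37 (SE 0.49, limma adjusted p = 0.933), from a Z difference of -0.36. On the other Ccnd1 probe sets the interactions were 0.31 and -0.45, so they did not share 1 sign. For Mki67 the interaction was -3.32 with an interval of -6.01 to -0.63 (limma adjusted p = 0.933). Its M and Z differences had opposite signs, on a probe set that read below 16 on 7 of 12 arrays. Kif20a gave -3.60 (SE 1.54), also from M and Z differences of opposite sign. Rrm2 gave -0.96 and its other probe sets -2.87 and -0.34. The interaction was -1.50 for Cdc20, -2.33 for E2f1 and -0.57 for Cenpa (limma adjusted p = 0.933 for each).

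With the transgene on in both lines, 39 of 53 members read lower in Z than in M livers and 14 higher. The median was -0.45 against 0.00 over all probe sets. This comparison uses the same M on arrays as the one above, so its values are not independent of it. At an unadjusted p under 0.05, 6 members (11.3%) read lower and 0 higher, against 3.40% and 3.45% of all probe sets. Every Z on array lay below every M on array for 11 members, against 6.02% of all probe sets, and above for Tyms, against 6.07%. The 11 were Ccna2, Cdkn1c, Mcm3, Mcm6, Prim1, Rrm1, Ube2c, Cenpa, Kif20a, Mad2l1 and Rb1.

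Cenpa, the histone that marks centromeres, read 64.8, 58.5 and 67.5 in M on and 53.9, 41.5 and 31.4 in Z on. The log2 difference was -0.62 (SE 0.20, limma adjusted p = 0.577). Mad2l1, a spindle checkpoint protein, read 78.6, 73.0 and 113.8 in M on and 60.1, 47.8 and 32.5 in Z on, a difference of -0.94 (SE 0.31, limma adjusted p = 0.581). Neither gene's groups overlapped. Cdc20 differed by -1.38 (SE 0.46, limma adjusted p = 0.583), with the third Z on array at 50.3 inside the M on range. Its other probe sets gave -1.26 and 0.13. Mcm3, another helicase subunit, differed by -1.60, and Rb1, the retinoblastoma protein gene, by -0.68 (limma adjusted p = 0.610 and 0.612). Further probe sets of Mcm3 gave -1.19, -1.07, 0.09 and -1.05. Kif20a read 28.8, 22.8 and 16.2 in M on and 2.3, 3.5 and 2.7 in Z on, a difference of -2.98 (SE 1.09, limma adjusted p = 0.623). Stmn1 differed by -0.64 and Mcm2, a helicase subunit, by -1.36 (limma adjusted p = 0.729 for both), and for both genes the groups overlapped. On its other probe set Mcm2 differed by 0.29, the opposite sign. The 18S signal also separated these groups, at 914.2 to 1491.7 in Z on and 226.6 to 767.5 in M on. The 7 endothelial markers summed to 785.2 to 973.8 in Z on and 612.0 to 721.3 in M on, with 4 of 7 higher in Z on and 3 lower. The part of the 18S signal and of the endothelial markers was not tested. Without the third M on array the count of members lower at an unadjusted p under 0.05 went from 6 to 2 and the median from -0.45 to -0.27. Without the first M on array the count was 13.

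With doxycycline in both lines, where neither transgene was expressed by design, 24 members read higher in Z and 29 lower, with a median of -0.03 against 0.03 over all probe sets. At an unadjusted p under 0.05, 4 members read higher and 0 lower (7.55%, against 4.44% higher, 3.29% lower and 7.73% in all over the probe sets). The 4 were Mcm5, Cdkn1a, Rrm2 and E2f1. In 5 members every Z off array lay above every M off array, against 8.36% of all probe sets, and in 2, Cdk2 and Gins1, below, against 6.76%. Without the first M off array the 4 became 8.

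Mcm5, Rrm2 and E2f1 had their lowest group mean in the M off livers. Mcm5 averaged 10.1 ± 3.68 in M off, and 30.3 ± 10.7, 26.2 ± 12.4 and 22.6 ± 4.42 in M on, Z off and Z on (SD, n = 3). Its Z off minus M off difference was 1.34 (SE 0.40, limma adjusted p = 0.457). Rrm2 read 52.2, 77.9 and 52.0 in Z off, above the M off arrays, with a difference of 0.84 (SE 0.26, limma adjusted p = 0.494). Further probe sets of Rrm2 gave 2.15 and -0.18. E2f1 read 28.2, 18.5 and 23.0 in Z off, with a difference of 2.02 (SE 0.73, limma adjusted p = 0.578). All 3 comparisons use the same M off arrays as the M on comparison. Fen1, a nuclease that trims Okazaki fragments, read 226.6, 405.1 and 99.8 in Z off and 203.5, 44.4 and 35.7 in M off, a difference of 1.61 (limma adjusted p = 0.721). Its other probe set gave -0.39, the opposite sign. Mki67 differed by 1.53, Birc5 by 2.16 and Ccnd1 by 0.59 (limma adjusted p = 0.727, 0.733 and 0.735). For Ccnd1 the other probe sets gave -0.1 and -0.23. The groups overlapped for Fen1, Mki67, Birc5 and Ccnd1.

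Cdkn1a was highest in the Z off livers and lower in all other groups, at 29.7 ± 11.3 in M off and 23.0 ± 10.3 in M on (SD, n = 3). Its difference between Z off and M off was 1.64 (SE 0.51, limma adjusted p = 0.481), and 0.27 on the dim second probe set. Other transcripts set the Z off livers apart as well. Alas2, the erythroid heme synthesis enzyme, was called higher, at 1118.8 to 1456.1 in Z off and 254.2 to 306.6 in M off, a log2 difference of 2.22 (limma adjusted p = 0.00832). The 6 measured erythroid markers summed to 1207.8 to 1605.5 in Z off and 228.0 to 426.5 on the other arrays, but for 3 of the 6 the mean was lower in the Z off group than in the M off group. The actin 3′ to 5′ ratio was 2.18 to 2.53 in Z off, and the 18S signal was 93.9 to 373.0 against 568.2 to 709.8 in M off. The part of these differences in the Cdkn1a values was not tested.

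Wee1, a cell cycle gene outside the members, encodes the kinase that holds CDK1 inactive and is known in mouse liver to be driven by the circadian clock. It read 22.8, 33.8 and 47.6 in Z off and 115.6, 125.6 and 78.2 in M off. The groups did not overlap, and the log2 difference was -1.65 (SE 0.64, limma adjusted p = 0.600). Dbp, a clock output factor, read 107.1, 51.1 and 23.8 in Z off and 838.7, 1103.5 and 905.4 in M off. In Z on, Wee1 read 118.2, 140.7 and 20.1 and Dbp 1365.0, 1385.3 and 80.1, so that the third Z on array was low for both. Within Z off the order of the arrays was opposite for the 2 genes. Of the 16 clock genes measured, 2 were higher and 7 lower in Z off against M off at an unadjusted p under 0.05, and 7 higher and 2 lower in Z on than in Z off, and none was called. No label gives the time of day at which livers were taken, and its part in the cell cycle values was not tested.

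Further lists of the pathway gave no called gene in any comparison. Of 25 further replication factors measured of 29 listed, 15 read higher in M on than M off (median 0.14) and 14 higher in Z on than Z off (median 0.07). Of 32 further mitotic genes of 34, 17 read higher in M on (median 0.05) and 10 in Z on (median -0.36). At an unadjusted p under 0.05, 3 of the 32 (9.38%) were lower in Z on and 0 higher, against 3.59% and 2.70% of all probe sets. Anln, the gene of anillin in the cytokinetic ring, read 10.4, 11.9 and 33.8 in Z off and 2.9, 6.0 and 3.6 in Z on, a difference of -2.02 (limma adjusted p = 0.465). Cks1b, a CDK-binding subunit, read 365.7 to 479.2 in Z off, 254.4 to 290.6 in Z on and 248.5 to 294.6 on all M arrays. Its Z difference was -0.65 (SE 0.17, limma adjusted p = 0.577), with only the Z off arrays standing above the rest.

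Of 12 E2F, pocket protein and DREAM complex genes measured of 17, 6 read higher in M on (median -0.01) and 4 in Z on (median -0.31). Of 12 further cyclins, kinases and inhibitors, 6 read higher in M on (median 0.05) and 7 in Z on (median 0.15). Ccng2, a cyclin linked to cycle arrest, read 52.2, 60.5 and 75.6 in M on and 108.8 to 178.9 in M off. Its groups did not overlap, with a difference of -1.16 (SE 0.33, limma adjusted p = 0.71) in M mice and -0.80 in Z mice. Of 21 liver growth signal and immediate early genes measured of 22, 6 read higher in M on (median -0.23) and 9 in Z on (median -0.05).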

How the data were processed

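Per the labels' protocols, total liver RNA of 12 mice was biotin-labelled and read on Affymetrix mouse arrays with 1 colour. The authors deposited 1 table of signal intensity per probe set (22690 probe sets). Per the submitters' processing notes RMA was used, but the deposited intensities are linear, from 0 to 37251.7, and each array's mean without the top and bottom 2% lies at 150.07 to 150.08, so the summarisation behind them is not settled here. No background or detection call was used.

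The 64 control probe sets were left out. The 1 value of 0 was set to 0.1, and log2 of the deposited intensity was fitted for 22626 probe sets with limma 3.58.1 in R 4.3.3 (lmFit and eBayes, 1 mean per group, Benjamini-Hochberg over all probe sets, called under 0.05). The fit was tested on simulated data. In the platform annotation 20380 probe sets had 1 symbol, 691 several and 1555 none, and only those with 1 were named. The table held 0 columns of other samples.

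In each comparison the 8 members with the smallest unadjusted p were described, with up to 3 genes of each list outside the members (replication, mitosis, E2F and DREAM, cyclins, p53, growth signals, clock, cell type markers) by the smallest p in any comparison. The members and lists were chosen with earlier results of these data known. Same-numbered arrays correlated at -0.083 to 0.161 in their deviations from group means, and differently numbered arrays at -0.183 to 0.157. All correlations between arrays numbered 3 were positive, at 0.008 to 0.161, while those between arrays numbered 1 or 2 had both signs. Weak correlations cannot show that mice were not matched or processed together, so whether the numbers paired the mice was not settled. Alternatives covered the normalization, the log offset, dim probe sets, the probe set rule, the variance model, array weights, the replicate block and each array left out.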

Additional observations from a re-analysis of the deposited data

How the results depend on the processing

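The count of members called was 0 in all 5 comparisons under every alternative run. The median over members in M on against M off was 0.14 to 0.34 when single arrays were left out and 0.11 to 0.28 under the other settings, and in Z on against Z off -0.32 to -0.11 and -0.23 to -0.14. The median of the interaction (-0.52) was -0.35 with log2 of signal plus 16. The Z on against M on median (-0.45) was -0.21 with that offset and -0.24 with only the 23 brighter members. It ran from -0.52 to -0.27 when single arrays were left out, the last without the third M on array. The offset lowers differences of dim probe sets by construction, and the other causes were not tested. With the replicate number as a block the medians were 0.22, -0.23, -0.52, -0.45 and -0.03 and 0 members were called. The counts at an unadjusted p under 0.05, added after seeing the data, were 7 members higher in M on against M off and 12 lower in Z on against M on with the offset, instead of 5 and 6. With array weights the latter was also 12, with quantile normalization 10. With only brighter members 2 read higher in M on against M off. With the block the counts were 4 lower in Z on against Z off instead of 2, 9 lower in Z on against M on instead of 6, and 6 higher in Z off against M off instead of 4. The shares of all probe sets at this threshold were not counted for the alternatives or with arrays left out. A change in the members can therefore not be told there from a change in the whole array. Calls over all probe sets in Z on against M on numbered 2 in the main fit and 10 with the offset. They numbered 9 with quantile normalization, 2 with array weights and 0 with the block. Of 614 alternatives for 40 gene results, 613 kept direction and side of the threshold. The exception was Mycl in Z on against Z off, -1.53 and 0.13 with the mean of its probe sets. The 40 were picked by the smallest p in the same data and none was called, so that count says little about stability. Sizes changed more: with the mean of all probe sets, Z on minus Z off was -0.15 for Cdk4 instead of -0.56. For Mcm3 it was -0.17 instead of -1.06. Limits are the 3 arrays per group and the signal, since 28 members read below 16 on some array.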

Other observations

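Second probe sets of members gave some of the smallest p-values found for these genes. A further probe set of Racgap1 read 16.4, 14.4 and 15.3 in M off and 2.7, 2.4 and 1.3 in Z off. The difference was -2.91 on the log2 scale (SE 0.70, limma adjusted p = 0.349), against -0.77 on its brighter probe set. A further probe set of Prc1, a central spindle protein, differed by 2.83 (SE 0.78, limma adjusted p = 0.71) between M on and M off and by 2.30 between Z off and M off. The brighter Prc1 probe set gave -0.20 between M on and M off, the opposite sign. It averaged 20.3 in M off and 17.4 in Z off. Over the 47 other probe sets, the sign matched that of the gene's brighter probe set in 28 for M on against M off and in 24 for Z on against Z off. The Mycl, Racgap1 and Prc1 probe sets were picked with their values in view.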
